A study of Mus musculus with 6 samples.

Results

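The 10 genes described here encode the proteins that coat the cytosolic lipid droplet (*Plin2*, *Plin3*, *Plin5* and *Cidec*), the enzymes that make triglyceride (*Dgat1* and *Dgat2*) and the lipases that break it down (*Pnpla2*, *Pnpla3*, *Lipe* and *Mgll*). They were chosen by name for these roles, with earlier results of these data known, and all 10 were found among the 18169 genes of the deposited table. RNA of Hepa 1–6 cells, a mouse hepatoma line, was sequenced after treatment with Shh, the secreted Sonic hedgehog ligand, in 3 libraries, and after vehicle in 3 libraries. No genotype, transgene or second agent separated the groups, and the dose and duration of Shh were not named for these libraries. The labels did not say whether the libraries came from separate cultures, so p-values measure the spread between these libraries, which may be technical. The comparison asks whether droplet and triglyceride genes of a hepatocyte-derived line differ in mRNA after Shh.

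Hepatocytes store fatty acids as triglyceride in droplets, which consist of a neutral lipid core, a phospholipid monolayer and a coat of perilipins and CIDE proteins. DGAT enzymes add the last acyl chain to diacylglycerol. Droplet triglyceride is then taken apart in steps, by ATGL (the product of *Pnpla2*), by hormone-sensitive lipase (*Lipe*) and by monoacylglycerol lipase (*Mgll*), which release a fatty acid each. Fat accumulation in the hepatocyte is the defining feature of fatty liver, and *Plin2* is the perilipin that accompanies it.

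The 6 libraries held 20253781 to 20291075 estimated counts in Shh cells and 20278619 to 20335463 in vehicle cells. The hepatocyte markers *Alb*, *Afp*, *Trf*, *Hnf4a* and *Fgb* were present. The 9 markers of the list summed to 1790 to 1902 TPM (transcript abundance scaled to length and depth) in Shh cells and 1792 to 1837 in vehicle cells. The other markers of the list, abundant in liver, were low. *Ttr* averaged 0.947 TPM in Shh cells and 0.667 TPM in vehicle cells, and *Serpina1a* 0 and 0.0967 TPM. *Apoa1* averaged 5.01 TPM in Shh cells and 5.51 TPM in vehicle cells, and *Apoa2* 6.38 and 6.79 TPM. *Gli1* and *Ptch1*, transcriptional targets of Hedgehog signaling, had log2 fold changes of 0.04 and 0.03, with adjusted p of 0.955 and 0.891 in edgeR's quasi-likelihood test. *Hhip*, the third target on the list, was too low to be tested. Across the 12286 genes tested, edgeR called 0 (0%) at an adjusted p under 0.05 and DESeq2 called 0. At an unadjusted p under 0.05 edgeR took 1277 genes (10.4%) and DESeq2 took 814. Without Shh replicate 1 edgeR called 195 genes, none of them among the 10. The 3 libraries of each group did not overlap for 1899 genes (15.5%). Counts also moved with transcript length, and by group. The quintile of tested genes with the shortest transcripts had a median log2 difference from the vehicle mean of −0.03, −0.16 and −0.06 in the Shh libraries, against 0.01, 0.00 (0.0046) and −0.01 in the vehicle libraries, and every Shh library lay below every vehicle library. With an offset for this trend 719 genes (5.99%) had an unadjusted p under 0.05.

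*Plin2* was the most abundant of the 10 genes in every library and *Plin5* the least. TPM values, which can be set side by side between genes, gave the order *Plin2*, *Pnpla2*, *Plin3*, *Dgat1*, *Lipe*, *Cidec*, *Dgat2*, *Pnpla3*, *Mgll* and *Plin5* in vehicle cells. *Plin2* stood above 97.2% of all genes of the table in vehicle cells, while *Plin5* stood above 28.1%. *Plin2* took 82.3% to 83.4% of the summed TPM of the 3 perilipins and 61.9% to 65.1% of that of all 10 genes. Several neighbours in the order did not differ beyond their spread. *Pnpla2* was above *Plin3* in 4 of 6 libraries, *Lipe* above *Cidec* in 4, *Cidec* above *Dgat2* in 5 and *Pnpla3* above *Mgll* in 4. The remaining 5 neighbouring pairs kept their order in all 6 libraries.

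**Figure D1:**
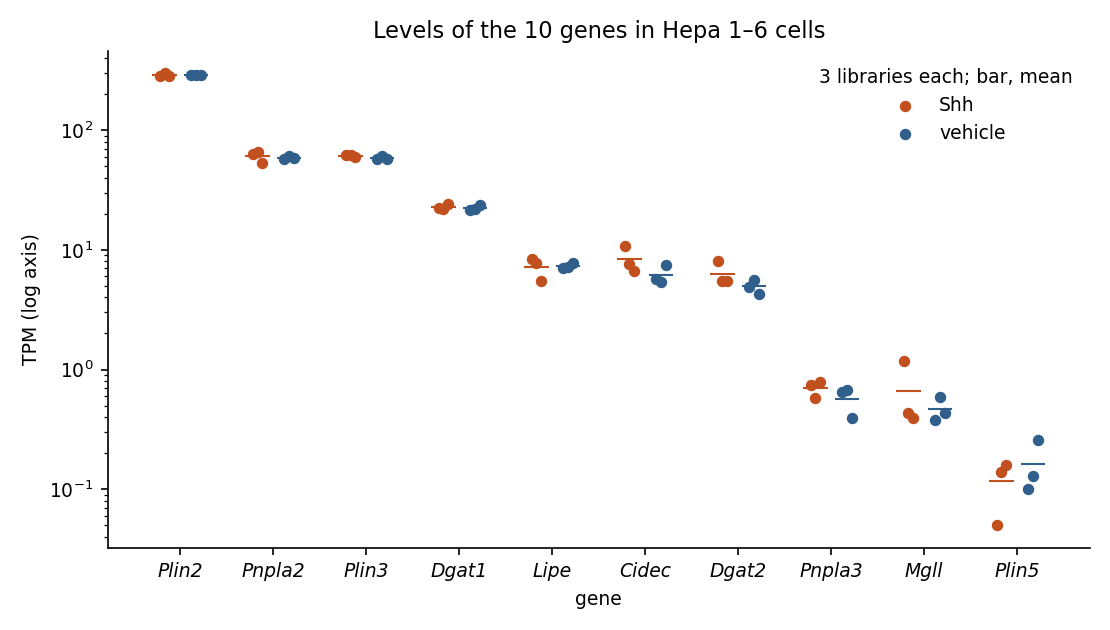
TPM (log axis) of the 10 genes in 3 Shh and 3 vehicle libraries, with points for libraries and bars for group means. *Plin2* lies at 285.0 to 297.9 TPM in Shh cells and 287.0 to 289.2 TPM in vehicle cells, and *Plin5* lies at or below 0.26 TPM in every library.

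Promoter sequences are shown for the genes that carry an E-box, the palindrome CACGTG bound by circadian and other basic helix-loop-helix factors. The motif was picked since the study examined binding of the clock factor BMAL1 to the *Usp31* promoter after Shh. The study reported no such binding assay for the genes shown here. The windows are those of RefSeq on GRCm38.p6, running 250 bases before to 50 bases after each gene's start. They covered 8 of the 10 genes in 12 windows, and *Dgat1* and *Dgat2* had none. The stretches run 5′ to 3′ on the gene's strand with the E-box in capitals. Distances are to the start of the window shown, and *Mgll* and *Lipe* each have another window without an E-box. *Plin2* is on the minus strand at chr4:86670058-86670123 with the E-box starting 4 bases before the gene's start, *Mgll* on the plus strand at chr6:88724308-88724403 with the E-box starting 44 bases before it, and *Lipe* on the minus strand at chr7:25396107-25396202 with the E-box starting 155 bases before it.
Plin2: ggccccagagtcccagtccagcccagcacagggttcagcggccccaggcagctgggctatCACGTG
Mgll: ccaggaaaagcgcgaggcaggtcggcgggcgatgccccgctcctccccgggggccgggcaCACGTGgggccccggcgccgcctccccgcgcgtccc
Lipe: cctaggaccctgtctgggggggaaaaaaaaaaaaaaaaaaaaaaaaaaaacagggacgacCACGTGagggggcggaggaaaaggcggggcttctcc
An E-box was thus in 3 of the 12 windows, against 7.15% of the 32851 windows of the table. The Gli motif GACCACCCA, searched on both strands, was in 0 of the 12 windows and in 0.253% of all windows. The nuclear receptor half-site AGGTCA, searched on both strands, was in 3 windows of *Plin2* and *Plin5*, against 16.3% of all windows. A match only says that these letters lie in the window.

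None of the 9 genes that passed the filter on low counts was called in Shh against vehicle cells. edgeR and DESeq2 each called 0 of 9, and 0 of 9 had an unadjusted p under 0.05 in either tool, where 10.4% of all genes tested did so in edgeR. The log2 fold change was above 0 for 4 genes and below 0 for 5, with a median of −0.01 beside 0.00 (0.0028) over all genes tested. The 10 genes summed to 461.8, 469.5 and 440.5 TPM in the Shh libraries, against 444.4, 449.9 and 448.0 TPM in the vehicle libraries, so the groups overlapped. In the values per sample that follow, libraries are given in the order of their replicate numbers, and CPM means counts scaled to library size with TMM factors, which serves to compare 1 gene between libraries. The sums above were taken in TPM only, and the scales can rank libraries differently. *Plin2*, the largest part of the sum, was highest in Shh replicate 2 in TPM (297.9) but lowest there in CPM (296.4).

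Among the droplet coat genes, *Plin2*, the main perilipin of the hepatocyte droplet, was 0.952 times as high in Shh as in vehicle cells and was the only one of the 9 genes tested whose libraries did not overlap. It had 313.1, 296.4 and 304.0 CPM in Shh cells, against 324.0, 317.8 and 317.9 CPM in vehicle cells. Every Shh library lay below every vehicle library, as for 15.5% of all genes in either direction, and the log2 fold change of −0.07 ± 0.04 (SE) had an adjusted p of 0.52 in edgeR, with a 95% interval of −0.16 to 0.01. On the TPM scale *Plin2* averaged 290 ± 7.25 in Shh cells and 288 ± 1.13 in vehicle cells (SD, n = 3 each). The TPM values were 285.8, 297.9 and 285.0 in Shh cells, against 289.2, 287.0 and 288.7 in vehicle cells, so Shh replicate 2 was the highest library and the other 2 Shh libraries lay below every vehicle library. With the length offset the log2 fold change was −0.04 and the groups did not overlap, as for 11.4% of all genes in that setting. *Plin3*, the widely expressed perilipin that also occurs in the cytosol, had 80.1, 73.7 and 75.7 CPM in Shh cells, against 76.7, 80.3 and 74.7 CPM in vehicle cells. The groups overlapped, and the log2 fold change of −0.01 ± 0.05 had an adjusted p of 0.939. The counts of *Plin3* were not whole in any of the 6 libraries, as happens where an estimate divides reads between features, and which other feature was involved is not known.

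*Plin5*, the perilipin of oxidative tissues that links droplets to mitochondria, was barely detected. It had 1, 3 and 3 counts in Shh cells, against 2, 3 and 6 counts in vehicle cells. It was left out by the filter, and at this depth no difference was detectable, since the exact Poisson 95% interval of 3 counts runs from 0.619 to 8.77 and covers counting error only. *Cidec*, which promotes fusion and growth of droplets and is most abundant in adipose tissue and steatotic liver, had 11.2, 7.23 and 6.67 CPM in Shh cells, against 6.14, 5.68 and 7.72 CPM in vehicle cells. Shh replicate 1 was the highest of the 6 libraries and the other Shh libraries lay within the vehicle range. The log2 fold change was 0.36 ± 0.18 with an adjusted p of 0.501, and its 95% interval ran from −0.04 to 0.76. Without Shh replicate 1 it was 0.09.

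**Figure D2:**
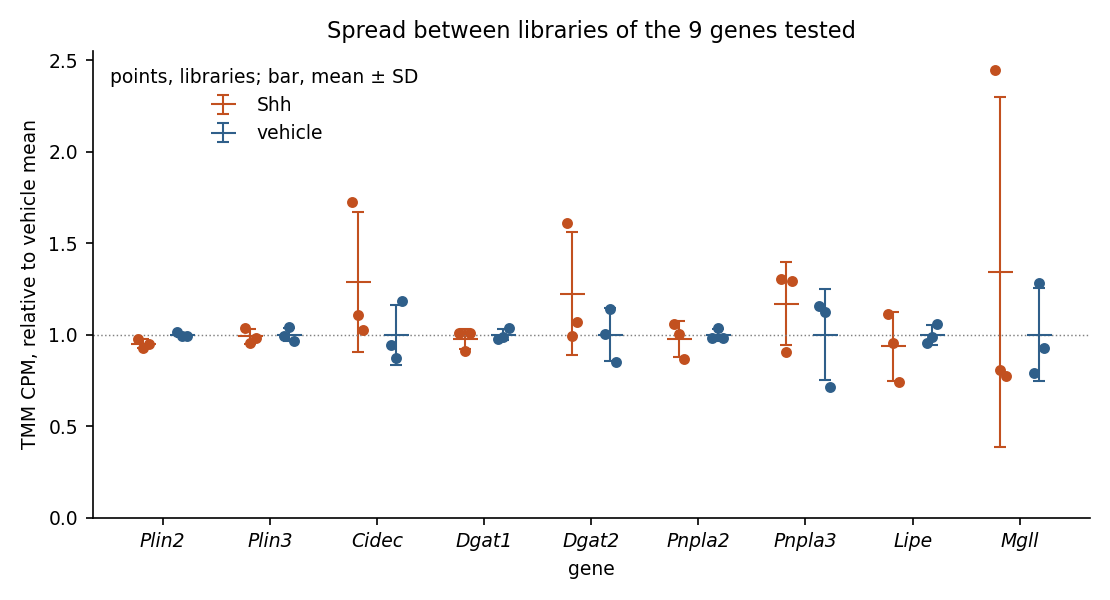
CPM of the 9 genes tested, divided by the vehicle mean of each gene, in 3 Shh and 3 vehicle libraries, with points for libraries and bars for mean ± SD. Shh replicate 1 reaches 1.73 for *Cidec*, 1.61 for *Dgat2* and 2.45 for *Mgll*, while *Plin2* and *Plin3* stay between 0.927 and 1.04.

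The triglyceride synthesis genes did not differ beyond the spread between libraries. *Dgat1*, an enzyme of the endoplasmic reticulum that also re-esterifies fatty acids from lipolysis, had 23.8, 21.5 and 23.9 CPM in Shh cells, against 23.0, 23.4 and 24.4 CPM in vehicle cells. The groups overlapped and the log2 fold change was −0.03 ± 0.06, with an adjusted p of 0.867 and a 95% interval of −0.17 to 0.10. *Dgat2*, which is unrelated in sequence to *Dgat1* and uses mainly newly made fatty acids in liver, had 10.9, 6.75 and 7.26 CPM in Shh cells, against 6.84, 7.77 and 5.79 CPM in vehicle cells. Here too Shh replicate 1 was highest and the other 2 Shh libraries lay within the vehicle range. The log2 fold change of *Dgat2* was 0.29 ± 0.17 with an adjusted p of 0.553, and 0.04 without Shh replicate 1. The ratio of *Dgat2* to *Dgat1* per transcript length within a library averaged 0.278 ± 0.0671 in Shh cells and 0.223 ± 0.0374 in vehicle cells (SD, n = 3 each), a difference with p = 0.4 in an exact two-sided permutation test whose smallest possible p is 0.1 at this size.

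Of the lipases, *Pnpla2*, which encodes ATGL and takes the first fatty acid from triglyceride, was the most abundant. It had 100.0, 94.9 and 82.0 CPM in Shh cells, against 92.8, 98.4 and 92.8 CPM in vehicle cells. The Shh libraries spanned the vehicle range on both sides, and the log2 fold change was −0.04 ± 0.06 with an adjusted p of 0.859. *Pnpla3*, whose human variant is a known risk factor for fatty liver, had 2.08, 1.45 and 2.06 CPM in Shh cells, against 1.85, 1.79 and 1.14 CPM in vehicle cells. These levels correspond to 22.7 to 42.3 estimated counts per library, the counts were not whole in any library, and the 95% interval of the log2 fold change of 0.22 ran from −0.33 to 0.77 (adjusted p = 0.763). The ratio of *Pnpla2* to *Pnpla3* per length averaged 89.2 ± 23.6 in Shh cells and 109 ± 30.7 in vehicle cells (SD, n = 3 each), and that of *Plin2* to *Plin3* averaged 4.73 ± 0.0737 in Shh cells and 4.93 ± 0.194 in vehicle cells. Their exact two-sided permutation p were 0.4 and 0.3, and after Benjamini-Hochberg adjustment over the 3 ratios each p was 0.4.

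*Lipe*, the hormone-sensitive lipase that acts mainly on diacylglycerol and is most abundant in adipose tissue, had 14.2, 12.1 and 9.42 CPM in Shh cells, against 12.1, 12.5 and 13.5 CPM in vehicle cells. The highest and the lowest library were both Shh libraries, and the log2 fold change was −0.09 ± 0.12 with an adjusted p of 0.794. Without Shh replicate 1 it was −0.24, without Shh replicate 3 it was 0.05. *Mgll*, which hydrolyses monoacylglycerol in the last step, had 50, 17 and 16 counts in Shh cells, against 16, 26 and 19 counts in vehicle cells. The exact Poisson 95% interval of Shh replicate 1, from 37.1 to 65.9, lay above those of Shh replicates 2 and 3, from 9.90 to 27.2 and from 9.15 to 26.0. It overlapped that of vehicle replicate 2, from 17.0 to 38.1. Those of vehicle replicates 1 and 3, from 9.15 to 26.0 and from 11.4 to 29.7, lay below it. These intervals cover counting error only, and Shh replicate 1 was singled out because it was high. The log2 fold change of *Mgll* was 0.42 ± 0.43 with an adjusted p of 0.733, and −0.33 without Shh replicate 1.

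**Figure D3:**
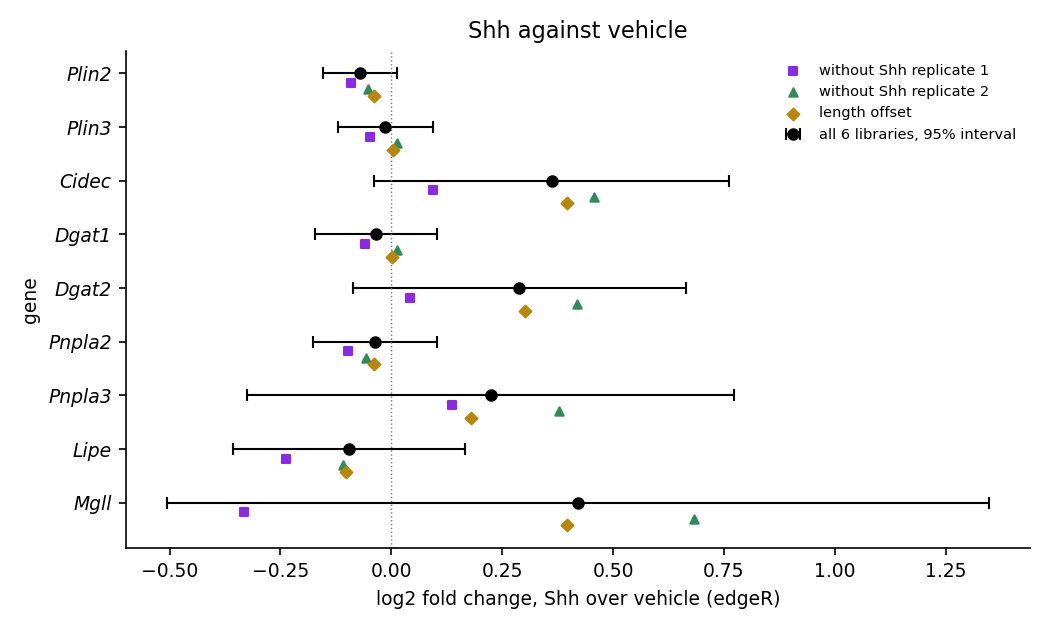
Log2 fold change of Shh over vehicle for the 9 genes tested by edgeR, with black points and 95% intervals for all 6 libraries, squares without Shh replicate 1, triangles without Shh replicate 2 and diamonds with the transcript length offset. Every 95% interval includes 0, and the square of *Mgll* lies on the other side of 0 from its black point.

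The 3 genes with the largest fold change, *Mgll*, *Cidec* and *Dgat2*, were high together in 1 library. In Shh replicate 1 each was at least 1.3 times the highest of the other 5 libraries, a rule set after their values were seen, which 187 of 12286 genes met (1.52%). In each of the other 5 libraries 31 to 40 genes met the same rule, and 0 of the 9 genes did. Adipocyte markers were also highest in that library. The 7 markers summed to 93.1, 41.6 and 39.1 TPM in Shh cells, against 51.7, 59.7 and 58.0 TPM in vehicle cells. Shh replicate 1 lay above every vehicle library and the other Shh libraries lay below every vehicle library.

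Of these 7 markers 6 were highest in Shh replicate 1, and 5 met the 1.3-fold rule. *Adipoq*, which encodes adiponectin, had 2.67, 0.819 and 0.442 CPM in Shh cells, against 1.15, 1.295 and 1.43 CPM in vehicle cells, and *Lep*, which encodes leptin, was at or near 0 in every library. *Plin1*, the perilipin of the adipocyte, had 3.37, 0.867 and 0.883 CPM in Shh cells, against 1.40, 1.69 and 0.742 CPM in vehicle cells. The summed macrophage and stellate cell markers were likewise above every vehicle library in Shh replicate 1 and below every vehicle library in the other Shh libraries. The 5 macrophage markers summed to 31.0, 20.9 and 19.5 TPM in Shh cells, against 23.0, 24.9 and 23.9 TPM in vehicle cells, and the 5 stellate cell markers to 14.4, 5.90 and 5.65 TPM in Shh cells, against 7.23, 10.4 and 8.72 TPM in vehicle cells. The 3 endothelial markers summed to 1.08, 0.68 and 0.49 TPM in Shh cells, against 0.50, 0.96 and 0.42 TPM in vehicle cells. Here Shh replicate 1 was again the highest library, but the other Shh libraries lay within the vehicle range. The endothelial sums rest on few reads, with at most 22 counts for any of these markers in any library. *Cdh5* was highest in vehicle replicate 2, with 22 counts against 18 in Shh replicate 1. Without Shh replicate 1, edgeR called the adipocyte markers *Cfd* at −0.80 (adjusted p = 0.0354) and *Fabp4* at −0.51 (adjusted p = 0.0354). It also called the stellate cell marker *Acta2* at −0.85 (adjusted p = 0.0462). All were lower in the other Shh libraries than in vehicle cells, in a setting that called 195 of 12391 genes. These markers were highest in the library left out, so the calls are no separate evidence that they were lower. The labels name no cells other than Hepa 1–6, and whether these transcripts came from the line itself or another source was not tested. Bulk libraries cannot tell the number of cells of a type from the RNA per cell. The part of any RNA from other cells in the values of *Cidec*, *Dgat2*, *Lipe* and *Mgll* was not tested.

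**Figure D4:**
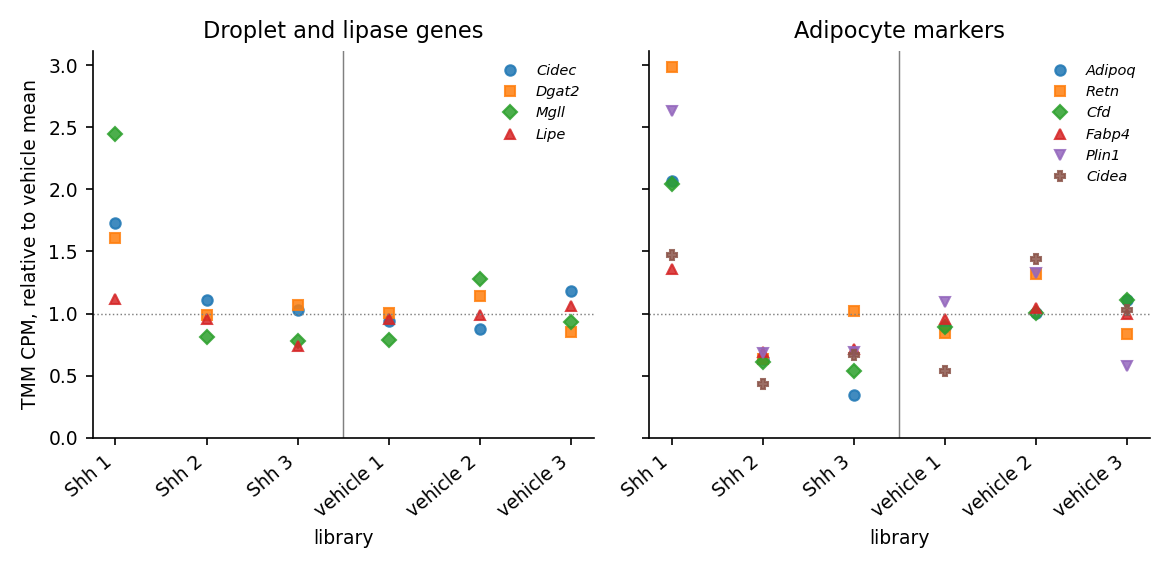
CPM of *Cidec*, *Dgat2*, *Mgll* and *Lipe* (left) and of 6 adipocyte markers (right) in each library, divided by the vehicle mean of each gene, without *Lep*, which was near 0. Shh replicate 1 is the highest library for all 10 genes drawn, and all 6 markers but *Retn* lie below 1 in both other Shh libraries. *Lipe* did not meet the 1.3-fold rule. Of the tested genes not drawn, *Pnpla2* and *Pnpla3* were also highest in Shh replicate 1, and *Plin2*, *Plin3* and *Dgat1* were not.

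The other genes of the pathway were read from lists chosen by role, and 0 were called in any list by edgeR. Of 13 further droplet coat and biogenesis genes 10 were tested, with 4 log2 fold changes above 0, 6 below and a median of −0.02. Only *Tmem159*, which encodes a seipin partner in droplet formation (LDAF1), had an unadjusted p under 0.05. It had 15.5, 14.7 and 15.2 CPM in Shh cells, against 16.8, 18.1 and 16.5 CPM in vehicle cells, with a log2 fold change of −0.18 (adjusted p = 0.469), and −0.12 with the length offset. *Cideb*, *Fitm1* and *Hsd17b13* were too low to be tested, although *Cideb* and *Hsd17b13* are abundant in liver.

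Of 18 lipolysis regulators and other lipases 13 were tested, with 4 log2 fold changes above 0 and 9 below, and a median of −0.02. *Hilpda*, a hypoxia-inducible inhibitor of ATGL, had 97.2, 79.2 and 88.8 CPM in Shh cells, against 104, 98.2 and 97.9 CPM in vehicle cells. Its groups did not overlap, as for 3 of the 13 genes tested (all lower in Shh cells) and 15.5% of all genes. The log2 fold change of *Hilpda* was −0.18 ± 0.07 with an adjusted p of 0.469. Without Shh replicate 1 *Hilpda* was called at −0.25 (adjusted p = 0.0481), the setting in which the markers *Cfd*, *Fabp4* and *Acta2* were also called lower, and with the length offset its log2 fold change was −0.09 (adjusted p = 0.82). *Abhd12*, a lysophospholipase, at −0.12 (adjusted p = 0.477) and *Ddhd2*, a triglyceride hydrolase of the brain, at 0.19 (adjusted p = 0.469) were the other 2 with an unadjusted p under 0.05. *Abhd5*, the coactivator of ATGL, and *G0s2*, its inhibitor, had log2 fold changes of −0.02 and −0.10 with adjusted p of 0.939 and 0.732.

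Of 21 genes for the steps before DGAT 16 were tested, of which 0 had an unadjusted p under 0.05, with 12 log2 fold changes above 0, 4 below and a median of 0.03. With the length offset 10 were above 0 and 6 below, with a median of 0.01. In that setting 2 had an unadjusted p under 0.05 in edgeR, both lower in Shh cells. *Acsl4*, an acyl-CoA synthetase that prefers arachidonate, had the smallest p at a log2 fold change of 0.11 (adjusted p = 0.496). *Acsl5*, another acyl-CoA synthetase, had 381, 382 and 386 CPM in Shh cells, against 367, 370 and 371 CPM in vehicle cells. Its groups did not overlap, as for 15.5% of all genes, but the log2 fold change was only 0.05 (adjusted p = 0.608). The 4 genes for export of triglyceride in lipoproteins had a median of 0.05. *Sar1b*, a GTPase of the vesicles that carry lipoproteins out of the endoplasmic reticulum, was without overlap at −0.09 (adjusted p = 0.488), and −0.02 with the length offset. Of 13 transcription factors and kinases of lipid storage 12 were tested, with 5 above 0, 7 below and a median of 0.00 (−0.0037). The smallest p among them was that of *Foxo1*, a factor that raises *Pnpla2* transcription, at 0.12 (adjusted p = 0.522).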

How the data were processed

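The table that the authors deposited holds estimated counts, with 36.4% of its nonzero values fractional. It also holds FPKM, for which the authors divided by length and depth, and TPM, which the authors scaled to transcript length within each library. The submitters' notes on processing list Bowtie2, with no version. Not given in the sources used here: counter, genome build, annotation. The authors' group averages were left out. The labels name the cell line and were followed, although the series design text speaks of liver exosomes.

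Rounded estimated counts were fitted over the whole table with edgeR 4.0.16 in R 4.3.3, using TMM factors, filterByExpr (at least 10 counts, total of at least 15), the quasi-likelihood test with group as its term, and Benjamini-Hochberg adjustment over all genes tested at 0.05. Deposited FPKM served only to recover transcript lengths. The calls and log2 fold changes were recomputed with DESeq2 1.42.0, with upper-quartile factors, unfiltered, and with the replicate number as a block. They were also recomputed with a length offset (smooth trend of 5 degrees of freedom), with block and offset together, and on leaving out each library. The overlap between groups was recomputed only with upper-quartile factors, with the length offset and on leaving out each library. The ratios were recomputed only from counts and on leaving out each library. The offset without Shh replicate 1 was added after seeing the data. All 10 genes were named, and up to 4 of each other list by smallest p. *Abhd5* and *G0s2* were added after their values were seen. The genes and lists were chosen with earlier results of these data known.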

Additional observations from a re-analysis of the deposited data

How the results depend on the processing

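No setting called any of the 9 genes tested. Over all genes, edgeR called 0, against 1 without the filter, 1 with the length offset, 3 with replicate block and length offset together, 0 with the replicate block alone and 0 to 195 on leaving out 1 library. The 195 were reached without Shh replicate 1, and the same setting with the length offset called 13. Of the 9 genes tested, 1 was without overlap, beside 15.5% of all genes, and 1 to 2 were on leaving out 1 library. Those without overlap were *Plin2* and *Lipe* without Shh replicate 1 (37.7% of all genes in that setting) and *Plin2* and *Pnpla3* without Shh replicate 2 (21.7%). They were *Plin2* and *Cidec* without vehicle replicate 3 (28.5%). *Plin2* alone was without overlap when any other library was left out (22.6% to 25.9% of all genes). At an unadjusted p under 0.05 the count of 0 of the 9 became 2 without Shh replicate 1 (21.1% of all genes in that setting), 2 without Shh replicate 2 (6.2%), 1 without Shh replicate 3 (9.33%), 1 without vehicle replicate 3 (8.33%), 1 with the length offset (5.99%), 1 with replicate block and length offset (6.99%) and 1 with the length offset without Shh replicate 1 (12%). *Plin2* stayed below 0 (−0.09 to −0.04) and *Cidec*, *Dgat2* and *Pnpla3* above 0 (0.09 to 0.50, 0.04 to 0.42 and 0.03 to 0.38) in all 13 settings.

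The other log2 fold changes changed sign in at least 1 setting. *Plin3* was 0.0038 with the length offset, 0.0039 with replicate block and length offset, and −0.0473 to 0.0152 on leaving out 1 library. *Dgat1* was 0.0017 in the same 2 settings, 0.0001 with the length offset without Shh replicate 1, and −0.0605 to 0.0133 on leaving out 1 library. On leaving out 1 library *Pnpla2* ran from −0.0979 to 0.0407, *Lipe* from −0.238 to 0.0465 and *Mgll* from −0.33 to 0.69, and *Mgll* was −0.36 with the length offset without Shh replicate 1. The cause of these changes was not tested. Same-numbered libraries deviated from their group means with correlations of −0.02, −0.08 and 0.14, and only number 3 correlated best with itself, so the numbers were not read as pairs. Counting error limits *Plin5*, *Mgll* and *Pnpla3*, with at most 50 counts in any library.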
